A study of Homo sapiens with 4 samples.

Results

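Catecholamine synthesis, storage, reuptake and breakdown was followed through 9 genes of the 57820 in the table of counts. They were found by their symbol, and each gene's transcripts were summed. The genes are *GCH1*, *TH*, *DDC*, *DBH* and *PNMT* for synthesis, *SLC18A1* and *SLC18A2* for storage, *SLC6A2* for reuptake and *MAOA* for breakdown. RNA-seq had been performed on SK-N-SH cells, an established human neuroblastoma line, with 2 libraries from cells given the vector without an insert (vector control) and 2 from cells given a lentivirus that carries the lncRNA *RP5-998N21.4* (OE). All 4 libraries thus come from transduced cells of the same line, and in the study's methods the EF1a promoter of the vector drives the insert. The comparison asks which genes differ when the lncRNA is overexpressed. The control titles read WT, while their treatment label names the empty vector, which was followed here. Nothing in the labels says that the replicates were separate cultures, so the p-values measure only the spread between these libraries, which may be technical.

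Catecholamines are made from tyrosine. Tyrosine hydroxylase needs the cofactor tetrahydrobiopterin, whose supply starts with GTP cyclohydrolase, and turns tyrosine into L-DOPA. DOPA decarboxylase gives dopamine, dopamine beta-hydroxylase gives noradrenaline inside the vesicle, and PNMT methylates noradrenaline to adrenaline. Vesicular monoamine transporters load the amines into vesicles, the noradrenaline transporter takes released noradrenaline back, and monoamine oxidases start their breakdown. Neuroblastoma arises from the sympathoadrenal lineage, which uses this pathway.

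The libraries held from 23785164 to 28307591 counts. The overexpressed gene was counted 32 and 33 times in vector control and 2407 and 2808 times in OE, so the labels' groups differ in it the way they are named. Expression is given as CPM, counts scaled to 1000000 per TMM-normalized library. Of the 9 genes, 7 passed edgeR's filter on low counts and were tested, while *TH* and *PNMT* were not. A gene was taken to rise or fall only where edgeR's quasi-likelihood test gave an adjusted p under 0.05 (Benjamini-Hochberg, 20528 genes).

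In the OE libraries *DDC*, *DBH* and *GCH1* were 1.88, 1.77 and 1.48 times their vector control level, and *SLC18A2* was 0.685 times its vector control level. None of these differences passed the adjusted threshold. Of the 7 genes tested, 0 had an adjusted p under 0.05, where 0.594% of all genes tested did (0.283% higher and 0.312% lower). The study set its thresholds on DE-seq's test, at an adjusted p below 0.01 and a log2 fold change beyond 0.5 in size, and in edgeR's test these were passed by 0 of the 7 and 0% of all genes tested. An unadjusted p under 0.05 was reached by 5, with *DDC*, *DBH*, *GCH1* and *MAOA* higher and *SLC18A2* lower, against 20.8% of all genes tested (10.1% higher and 10.7% lower). The 2 conditions did not overlap in any of the 7, with OE higher in 6 and lower in 1, against 55.4% of all genes tested (27.8% higher and 27.6% lower). The Wald test of DESeq2, run on these genes, gave *DDC*, *DBH*, *GCH1* and *SLC18A2* an adjusted p under 0.05, where it did so for 19.8% of all genes, and placed *DDC*, *DBH* and *GCH1* past the study's thresholds, against 8.77% of all genes. The number called therefore depends on the test. Leaving OE replicate 1 or OE replicate 2 out of edgeR's fit gave log2 fold changes of 0.83 or 0.99 for *DDC* and 0.80 or 0.84 for *DBH*. The values were 0.61 or 0.52 for *GCH1*, 0.53 or 0.58 for *MAOA* and -0.55 or -0.54 for *SLC18A2*. Each of these fits holds 1 OE library, so no p-value is given for it. In bulk RNA a change in the share of cells that express a gene and a change in RNA per cell cannot be told apart.

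**Figure D1:**
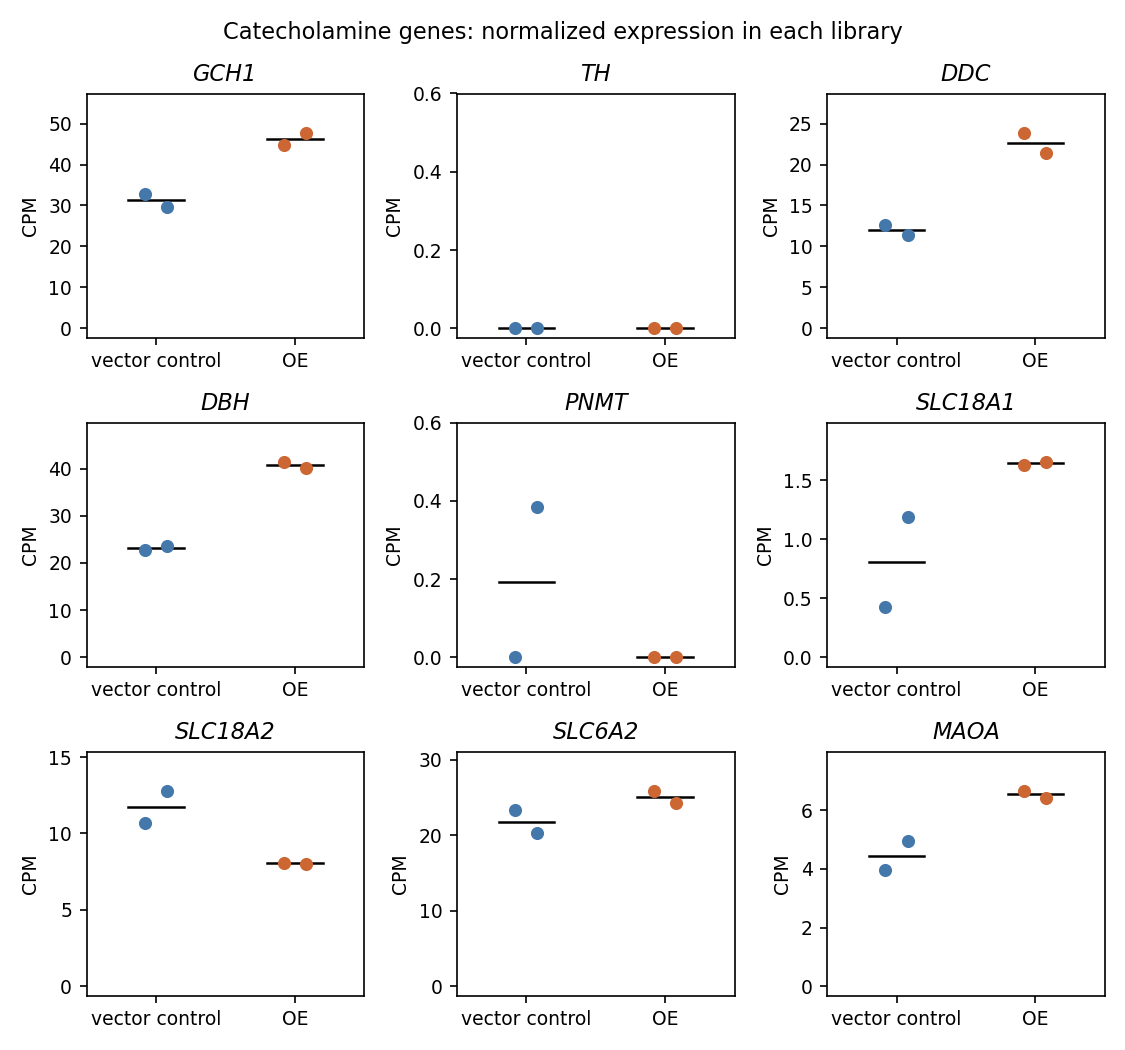
Normalized expression (CPM) of the 9 catecholamine genes in each library. Each point is a library, the line is the mean of the 2 libraries of a condition, and each gene has its own axis. *DDC*, *DBH*, *GCH1*, *MAOA*, *SLC18A1* and *SLC6A2* lie higher and *SLC18A2* lower in both OE libraries, and *TH* is listed at 0 throughout.

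Sequences before the annotated starts of 3 of these genes are shown because *DBH* and *DDC* were higher and *SLC18A2* lower in the same OE libraries. They are the 250 bases before the start that RefSeq gives (build GRCh38.p14), and each window matched GRCh37, the build of the files, at exactly 1 place on its chromosome. Promoter windows of 4 of the 9 genes were used, *DDC* with 2 starts and *DBH*, *SLC18A2* and *MAOA* with 1. Capitals mark TGACGT, the core of the cyclic AMP response element, and ATTA, the core that many homeodomain factors bind, on either strand. In the *DDC* sequence the capitals read TAAT, which is ATTA on the other strand. The *DBH* sequence lies on the plus strand at chr9:136501235-136501484, the *DDC* sequence on the minus strand at chr7:50628769-50629018 and the *SLC18A2* sequence on the plus strand at chr10:119000375-119000624. The last 21 bases of the *SLC18A2* sequence lie within a counted transcript of the gene, which GENCODE starts earlier than RefSeq.
DBH: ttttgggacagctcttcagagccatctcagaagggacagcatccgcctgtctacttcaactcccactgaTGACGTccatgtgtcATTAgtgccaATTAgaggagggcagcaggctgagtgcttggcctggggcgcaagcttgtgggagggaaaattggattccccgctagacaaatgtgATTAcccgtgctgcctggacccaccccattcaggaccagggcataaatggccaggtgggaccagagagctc
DDC: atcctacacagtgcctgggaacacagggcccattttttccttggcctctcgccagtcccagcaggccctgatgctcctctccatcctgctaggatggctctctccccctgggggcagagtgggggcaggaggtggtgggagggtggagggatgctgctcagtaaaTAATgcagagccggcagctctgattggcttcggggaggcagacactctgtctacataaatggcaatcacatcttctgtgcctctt
SLC18A2: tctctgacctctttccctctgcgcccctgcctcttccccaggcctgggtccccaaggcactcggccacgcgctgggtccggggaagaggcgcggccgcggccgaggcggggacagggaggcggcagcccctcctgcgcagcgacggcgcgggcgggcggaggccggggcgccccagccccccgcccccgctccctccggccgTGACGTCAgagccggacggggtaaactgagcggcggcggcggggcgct

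Motifs were counted on both strands in windows of 300 bases, 250 before and 50 after the start. The *DBH* window held 3 ATTA and 1 TGACGT. The *DDC* window shown held 1 ATTA, and that of its other annotated start, 4351 bases upstream of the 5′ end of its most counted transcript, held 4. The *SLC18A2* window held no ATTA, and its TGACGTCA, a whole cyclic AMP response element that reads the same on both strands and so contains TGACGT on each, lies from -48 to -41 with the start at 0. The *MAOA* window held 1 ATTA and 4 GATA, the core that GATA factors bind. Among 35116 promoter windows, 50.2% held ATTA, 49.7% held GATA, 7.98% held TGACGT and 1.85% held TGACGTCA, so ATTA and GATA are common in windows of this length. The E-box, CANNTG, was found 3 times in the *DBH* window, 3 times in that of the upstream *DDC* start, 1 time in that of *MAOA*, and in 68.7% of all windows. The base composition differed as well, with 78.7% G and C in the *SLC18A2* window, 59.3% in that of *DBH* and a median of 58.7% over all windows. Whether motifs or base composition bear on the differences between OE and vector control was not tested.

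*GCH1* (ENSG00000131979.14, chromosome 14, minus strand, 55308726 to 55369544) encodes GTP cyclohydrolase, which starts tetrahydrobiopterin synthesis. Counts were 766 and 695 for vector control and 1125 and 1382 for OE, or 32.9 and 29.6 CPM against 44.8 and 47.8 CPM. Both OE libraries were above both vector control libraries. The mean was 31.2 ± 2.35 CPM (SD, n = 2) for vector control and 46.3 ± 2.08 CPM (SD, n = 2) in OE. The log2 fold change was 0.57 (standard error 0.108, 95% interval 0.26 to 0.88, adjusted p = 0.115 from edgeR's test). All counts fell on ENST00000491895.2, 1 of 6 listed transcripts.

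Tyrosine hydroxylase, encoded by *TH* (ENSG00000180176.10, chromosome 11, minus strand, 2185159 to 2193045), is the rate-limiting enzyme of the pathway. *TH* was listed at 0 in vector control replicates 1 and 2 and in OE replicates 1 and 2, on each of its 11 transcripts. A count of 0 allows up to 3 counts, which is 0.126 and 0.124 CPM in the vector control and 0.122 and 0.106 CPM in OE, counting error only. The same table lists *TUBB*, a tubulin gene that every cell uses, at 0 in the 4 libraries. A 0 there can thus be a failed assignment of reads, and it is not shown that *TH* was silent. No fold was computed for *TH*.

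*DDC* (ENSG00000132437.13, chromosome 7, minus strand, 50526134 to 50633102) encodes the decarboxylase that makes dopamine from L-DOPA. Counts were 294 and 268 for vector control and 599 and 619 for OE. The lower OE library was well above the higher vector control library. The mean was 12 ± 0.863 CPM (SD, n = 2) for vector control and 22.6 ± 1.75 CPM (SD, n = 2) in OE. Its log2 fold change was 0.91 (standard error 0.133, 95% interval 0.53 to 1.29, adjusted p = 0.0877 from edgeR's test), which was above that of 92.8% of the genes tested.

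Nearly all *DDC* counts fell on the coding transcript ENST00000357936.5, whose 5′ end lies 17 bases downstream of the RefSeq start that follows the sequence shown. Its share was 98.0% (95% Wilson interval 95.6 to 99.1) and 100.0% (98.6 to 100.0) in the vector control. In OE it was 94.7% (92.6 to 96.2) and 98.7% (97.5 to 99.3). The shorter coding transcript ENST00000380984.4 took 6 and 0 counts for vector control and 28 and 8 for OE. The share of the main transcript thus overlapped between conditions. The antisense gene *DDC-AS1*, which shares 114 exon bases with *DDC*, was listed at 0 in the 4 libraries.

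*DBH* (ENSG00000123454.6, chromosome 9, plus strand, 136501485 to 136524451) encodes dopamine beta-hydroxylase, which makes noradrenaline and marks noradrenergic cells. Counts were 529 and 553 for vector control and 1041 and 1162 for OE, or 22.7 and 23.5 CPM against 41.5 and 40.2 CPM. Replicates lay close together and the conditions far apart. The mean was 23.1 ± 0.578 CPM (SD, n = 2) for vector control and 40.8 ± 0.929 CPM (SD, n = 2) in OE. The log2 fold change was 0.82 (standard error 0.0934, 95% interval 0.55 to 1.09, adjusted p = 0.0707 from edgeR's test). With robust dispersions in edgeR, a setting added after the values were seen, *DBH* alone of the 7 genes passed (adjusted p = 0.0378), where 3.15% of all genes did.

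All *DBH* counts fell on ENST00000393056.2, whose first base follows the last base of the sequence shown. The antisense lncRNA *DBH-AS1* shares 118 exon bases with *DBH*. It was at 13.2 and 13.2 CPM in the vector control and at 11.4 and 9.37 CPM in OE, a log2 fold change of -0.35 (adjusted p = 0.31 from edgeR's test). Its value was thus on the other side of 0 from that of *DBH*. Whether the counting used strand is not given in the sources used here.

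*PNMT* (ENSG00000141744.3, chromosome 17, plus strand, 37824234 to 37826728) encodes the enzyme that makes adrenaline. Counts were 0 and 9 for vector control and 0 and 0 for OE. Only vector control replicate 2 had any, at 0.383 CPM, and no fold or test was given.

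**Figure D2:**
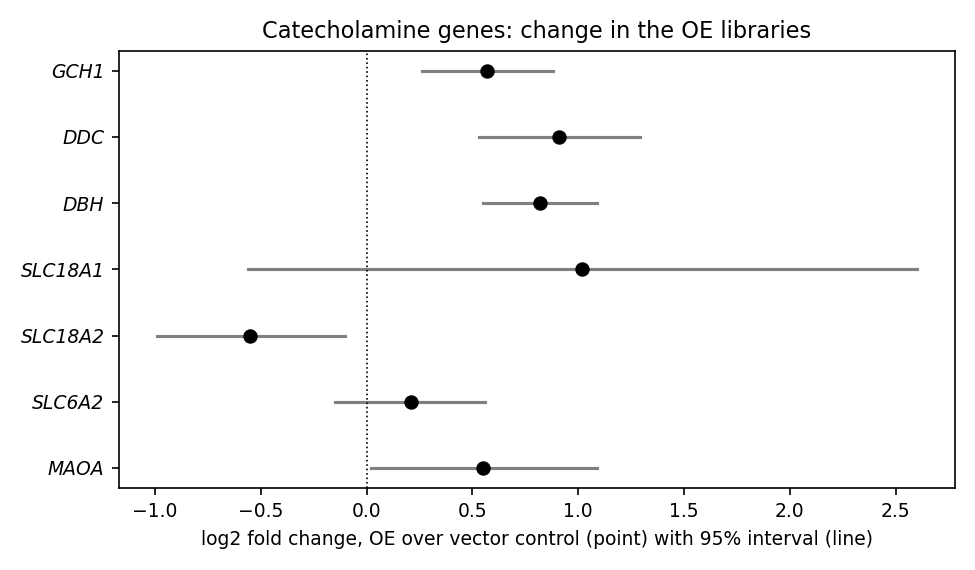
Log2 fold change of the 7 catecholamine genes tested (OE over vector control, points) with 95% intervals (lines) from edgeR's fit. The intervals of *GCH1*, *DDC*, *DBH* and *MAOA* lie above 0, that of *SLC18A2* below 0, and those of *SLC18A1* and *SLC6A2* cross 0; no gene had an adjusted p under 0.05.

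The 2 vesicular transporters did not show the same sign. *SLC18A2* (ENSG00000165646.7, chromosome 10, plus strand, 119000604 to 119038941) encodes VMAT2, the transporter of neurons. Counts were 249 and 300 for vector control and 203 and 231 for OE, or 10.7 and 12.8 CPM against 8.09 and 7.99 CPM. Both OE libraries were below both vector control libraries. The mean was 11.7 ± 1.47 CPM (SD, n = 2) for vector control and 8.04 ± 0.0735 CPM (SD, n = 2) in OE, a log2 fold change of -0.55 (standard error 0.155, 95% interval -0.99 to -0.10, adjusted p = 0.187 from edgeR's test). Its adjusted p from DESeq2 was 0.0204.

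All *SLC18A2* counts fell on ENST00000497497.1, which the lifted GENCODE annotation types as a retained intron, and the other listed transcript, ENST00000298472.5, was at 0 in every library. The transcript has 15 exons and 4125 bases. Of these, 2157 bases, all in its last exon of 2269 bases, lie opposite an exon of *PDZD8*, a protein-coding gene on the other strand. *PDZD8* was at 82.1 and 72.4 CPM in the vector control and at 60.6 and 64.3 CPM in OE, a log2 fold change of -0.31 (adjusted p = 0.241 from edgeR's test). It had more counts than *SLC18A2* in every library and was also lower in both OE libraries, and without strand the reads of the shared stretch cannot be told apart. Its part in the *SLC18A2* difference was not tested.

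*SLC18A1* (ENSG00000036565.10) encodes VMAT1, the vesicular transporter of neuroendocrine cells. Counts were 10 and 28 for vector control and 41 and 48 for OE, or 0.429 and 1.19 CPM against 1.63 and 1.66 CPM. Both OE libraries were above, but the vector control libraries stood far apart. The log2 fold change was 1.02 (standard error 0.555, 95% interval -0.56 to 2.60, adjusted p = 0.39 from edgeR's test), and it was 0.46 when vector control replicate 1 was left out and 1.92 when replicate 2 was. The size of the difference thus rests on the choice of control library.

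*SLC6A2* (ENSG00000103546.14, chromosome 16, plus strand, 55689900 to 55741557) encodes the noradrenaline transporter. Counts were 542 and 477 for vector control and 651 and 703 for OE, or 23.3 and 20.3 CPM against 25.9 and 24.3 CPM. The groups did not overlap, but the nearest libraries of the groups were closer than the vector control libraries to each other. The log2 fold change was 0.21 (standard error 0.125, 95% interval -0.15 to 0.56, adjusted p = 0.433 from edgeR's test). It was 0.30 when vector control replicate 1 was left out and 0.11 when replicate 2 was.

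The second transcript of *SLC6A2* held from 36.3% to 44.3% of its counts, while that of *SLC18A1* held from 0% to 18.8% and that of *DDC* at most 4.67%. The first *SLC6A2* transcript, ENST00000219833.8, held 55.7% (95% Wilson interval 51.5 to 59.8) and 63.7% (59.3 to 67.9) of its counts in the vector control. In OE the share was 60.1% (56.3 to 63.8) and 60.9% (57.2 to 64.4). Both OE values lay between those of the vector control, so no shift between its transcripts was detectable at this depth. The annotation places a further gene, ENSG00000278928, on 2304 of its exon bases on the same strand, which was not analysed here.

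*MAOA* (ENSG00000189221.5, chromosome X, plus strand, 43514155 to 43606064) encodes monoamine oxidase A, which deaminates noradrenaline and serotonin. Counts were 92 and 116 for vector control and 167 and 185 for OE, or 3.95 and 4.94 CPM against 6.66 and 6.40 CPM. Both OE libraries were above both vector control libraries. The mean was 4.44 ± 0.697 CPM (SD, n = 2) for vector control and 6.53 ± 0.184 CPM (SD, n = 2) in OE. The log2 fold change was 0.55 (standard error 0.187, 95% interval 0.02 to 1.09, adjusted p = 0.229 from edgeR's test). All counts fell on ENST00000338702.3, 1 of its 4 listed transcripts.

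To set the genes beside each other, counts of each transcript were divided by its length and scaled to the same total in every library (1000000). On this scale the vector control order was *GCH1* (21.43 ± 2.01, SD, n = 2), *DBH* (16.8 ± 0.101), *DDC* (12.5 ± 1.2), *SLC6A2* (11 ± 0.923), *SLC18A2* (5.68 ± 0.603), *MAOA* (2.26 ± 0.312) and *SLC18A1* (0.673 ± 0.535). *DDC* and *SLC6A2*, neighbours in this order, were at 13.3 and 11.6 against 11.6 and 10.3, so that their ranges met. In the OE libraries the order was the same, with *GCH1* at 33.1 ± 2.10, *DBH* at 31.0 ± 0.137 and *DDC* at 24.8 ± 1.92. There *GCH1*, at 31.7 and 34.6, lay just above *DBH*, at 31.1 and 30.9, while *SLC6A2*, at 13.2 ± 0.326, lay well below *DDC*. The order of *SLC18A2* and *SLC6A2* in the vector control turned when the union of each gene's exons was taken as its length, with 6.67 ± 0.72 and 6.36 ± 0.723, which did not differ beyond their spread. With that length *DDC*, at 9.73 and 8.58, lay clear of *SLC6A2*, at 6.88 and 5.85.

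**Figure D3:**
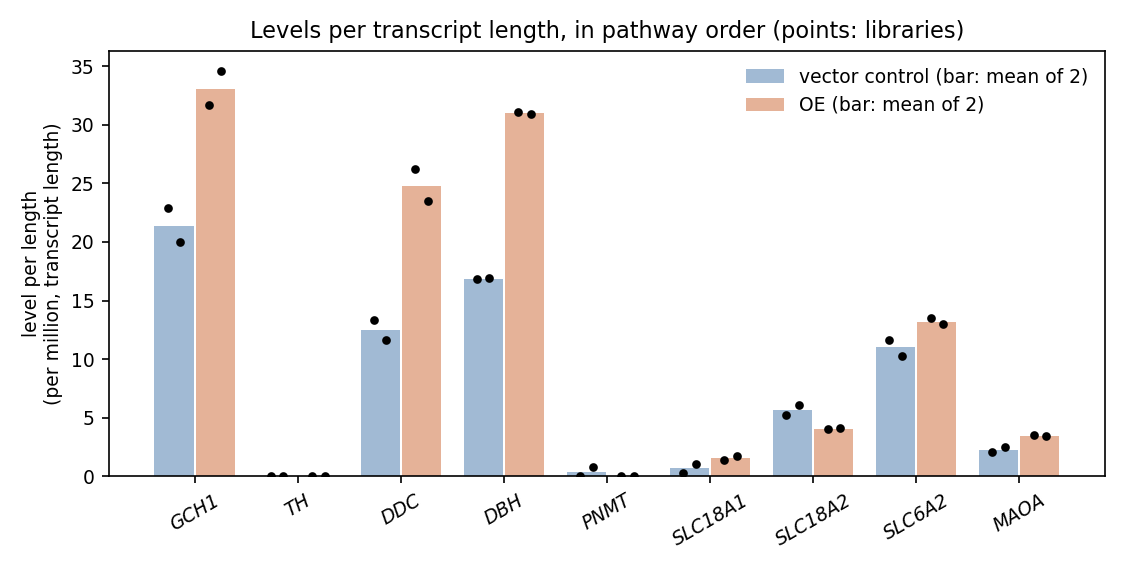
Levels per transcript length (counts per base scaled to a total of 1000000 per library) of the 9 catecholamine genes in pathway order. Bars are the means of 2 libraries and points are the libraries; in OE, *DDC* and *DBH* lie well above *SLC6A2*, whereas in the vector control the ranges of *DDC* and *SLC6A2* meet, which they do not with the union of exons as length.

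Ratios of counts within a library do not depend on its depth. *DDC* counts per 100 *DBH* counts were 55.6 and 48.5 in the vector control and 57.5 and 53.3 in OE, so the 2 enzymes kept overlapping proportions. *SLC18A2* counts per 100 *DBH* counts were 47.1 and 54.2 in the vector control and 19.5 and 19.9 in OE. Counts of *SLC18A2* thus stood at a lower proportion to those of *DBH* in both OE libraries. All of them fell on the retained-intron transcript that lies partly opposite *PDZD8*. *SLC6A2* counts per 100 *DBH* counts were 102 and 86.3 in the vector control and 62.5 and 60.5 in OE. *SLC18A1* counts per 100 *SLC18A2* counts were 4.02 and 9.33 in the vector control and 20.2 and 20.8 in OE. These ratios restate the values above on another scale and were not tested.

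**Figure D4:**
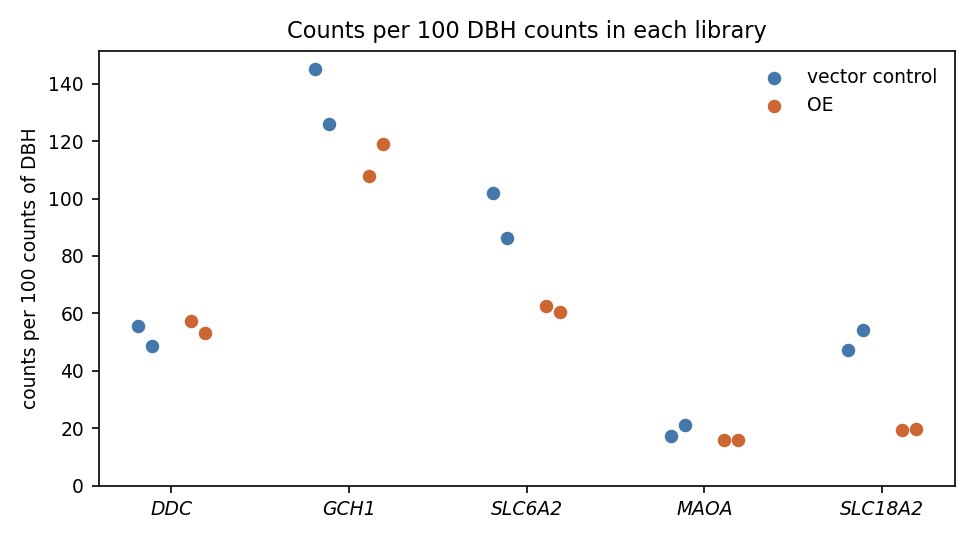
Counts of *DDC*, *GCH1*, *SLC6A2*, *MAOA* and *SLC18A2* per 100 counts of *DBH* in each library (points, 2 per condition). The *DDC* values overlap between conditions, whereas *SLC18A2* is at 47.1 and 54.2 in the vector control and at 19.5 and 19.9 in OE.

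The rest of the pathway was described by lists. Of 7 genes for the supply and recycling of tetrahydrobiopterin, 7 were tested and 0 had an unadjusted p under 0.05 (20.8% over all genes tested), with a median log2 fold change of 0.01, where the median over all genes tested was 0.007. *GCHFR*, the feedback regulator of GTP cyclohydrolase, had the highest log2 fold change of this list (0.43), which was from 0.13 to 0.68 with each library left out.

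Of 13 other enzymes of breakdown, 7 were tested, of which 0 were higher and 3 lower at an unadjusted p under 0.05, where 10.1% of all genes tested were higher and 10.7% lower. *ADH5*, an alcohol dehydrogenase, was lowest, with 62.3 and 48.5 CPM in the vector control and 28.9 and 20.8 CPM in OE (log2 fold change -1.16, adjusted p = 0.124 from edgeR's test). With its most counted transcript in place of the gene, the value was -3.04 (standard error 2.88). *MAOB*, the sister enzyme of *MAOA*, had 4 counts in OE replicate 1 and 0 in the other 3 libraries.

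Of 14 genes for other transport, cofactors and related hydroxylases, 6 were tested, 1 higher and 1 lower at an unadjusted p under 0.05, where 10.1% of all genes tested were higher and 10.7% lower. *CYB561*, the cytochrome that supplies electrons for DBH in the vesicle, was counted 209 and 230 times in vector control and 338 and 7246 times in OE. Its log2 fold change of 3.81 (adjusted p = 0.277 from edgeR's test) rested on OE replicate 2 and was 0.52 without it. *MOXD1*, a relative of *DBH*, was lowest at -0.32. *SLC6A3*, the dopamine transporter, was listed at 0 in the 4 libraries.

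Of 14 catecholamine receptors, 8 were tested, 2 higher and 0 lower at an unadjusted p under 0.05 (10.1% and 10.7% over all genes tested). Leaving aside those whose mean was below 1 CPM, *ADRA2C*, an alpha-2 adrenergic receptor, was highest, with 6.14 and 7.45 CPM in the vector control and 13.4 and 11.7 CPM in OE (log2 fold change 0.88, adjusted p = 0.121 from edgeR's test). *ADRA1B* was lowest at -0.39, and its value was -0.94 without OE replicate 2 and -0.01 without OE replicate 1. The receptors thus had members on both sides of 0.

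Markers of the line's cell states were described in the same way. Of 8 adrenergic lineage factors, 8 were tested and 6 were higher and 0 lower at an unadjusted p under 0.05, against 10.1% and 10.7% of all genes tested, and edgeR's adjusted p was under 0.05 for 1 of them, which was higher. The median log2 fold change of the list was 0.99. *GATA2*, a GATA-family factor, had the lowest value of this list, 0.37. The summed expression of the list was 565 and 633 CPM in the vector control and 949 and 915 CPM in OE.

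Of 6 other adrenergic neuroblastoma markers, 5 were tested, 4 were higher at an unadjusted p under 0.05 (10.1% over all genes tested), and *CARTPT* was at 0 in the 4 libraries. *CHGA*, chromogranin A of the secretory vesicle, rose from 49.7 and 48.6 CPM in the vector control to 136 and 121 CPM in OE (log2 fold change 1.39, adjusted p = 0.0449 from edgeR's test), where 0.283% of all genes tested were higher at an adjusted p under 0.05. *DLK1* was highest at 1.64 and *STMN2* lowest at 0.54. The call of *CHGA* was lost with any 1 library left out, which leaves 1 library in a group, at log2 fold changes from 1.31 to 1.47. It was also lost in edgeR's test with the replicate block (adjusted p = 0.296) and with the most counted transcript (adjusted p = 0.0641). The log2 fold change was 1.39 in both of these fits.

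Of 8 mesenchymal markers, 8 were tested, 1 higher and 4 lower at an unadjusted p under 0.05 (10.1% and 10.7% over all genes tested), with a median log2 fold change of -0.45. *CD44*, a surface receptor, was lowest, with 613 and 565 CPM in the vector control and 354 and 365 CPM in OE (log2 fold change -0.71, adjusted p = 0.0615 from edgeR's test). *VIM*, vimentin, was highest at 1.22, but 0.11 without OE replicate 1. Genes of both the adrenergic and the mesenchymal lists were thus detected in these cells, which are labelled neuroblastoma. The summed expression of the mesenchymal list was 3180 and 3290 CPM in the vector control and 3680 and 2190 CPM in OE. The part of these cell states in the values of the catecholamine genes was not tested. Of 8 markers of other tissues, 7 were in the table, 3 of them (*ALB*, *KRT5* and *INS*) at 0 in every library, and their sum was from 1.07 to 2.76 CPM per library.

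**Figure D5:**
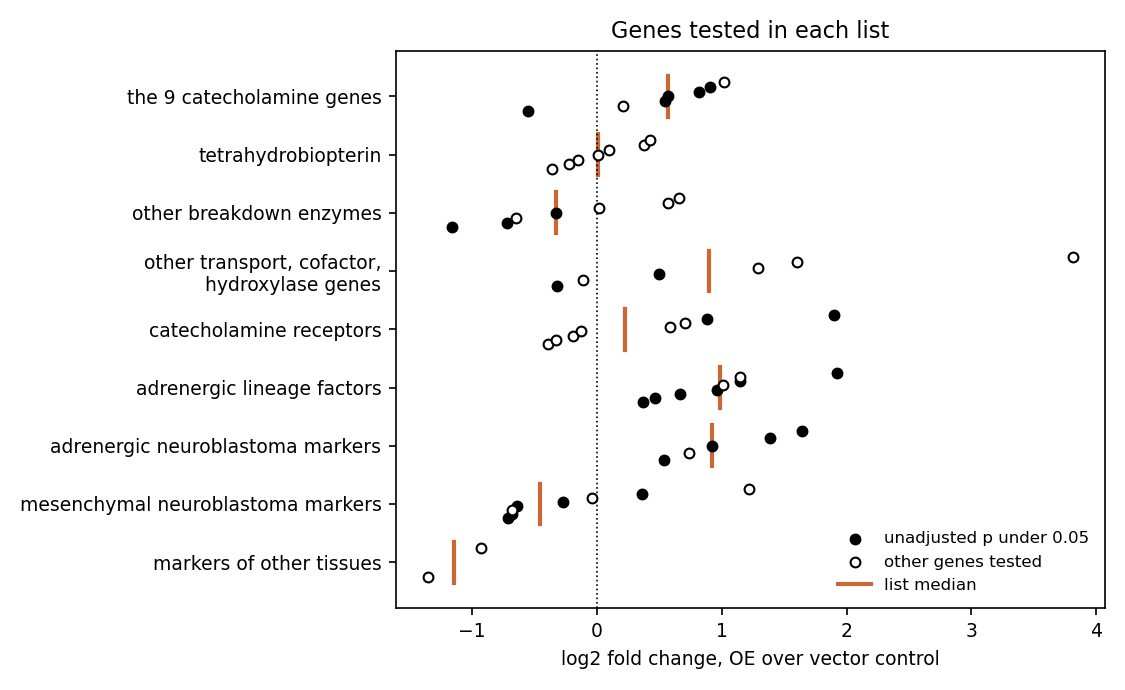
Log2 fold change (OE over vector control) of each gene tested in the 9 catecholamine genes and the lists around them. Filled points have an unadjusted p under 0.05 and the bar is the list median, which is 0.57 for the catecholamine genes tested, 0.01 for tetrahydrobiopterin genes, 0.99 for adrenergic lineage factors and -0.45 for mesenchymal markers.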

How the data were processed

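The 4 RNA-seq libraries of SK-N-SH cells, 2 per condition, were grouped by their treatment label. By the study's methods and the submitters' processing notes, reads were trimmed with Trimmomatic and mapped to hg19 with Bowtie2 2.0.4; the notes also list Picard 2.21.6, StringTie 2.1.6 and DESeq2. The deposited values are raw whole-number counts of 196520 transcripts. The tool that made the counts, its annotation release and its use of strand are not given in the sources used here. Counts were summed per gene, filtered with filterByExpr, normalized by TMM and tested in edgeR 4.0.16 (R 4.3.3; quasi-likelihood test, no covariates, Benjamini-Hochberg adjustment). The standard error is the absolute log2 fold change over the root of F, with 95% intervals from the t distribution on 3.75 degrees of freedom. The smallest two-sided p of an exact permutation test in this design is 0.333. A 0 was taken to allow up to 3 counts. Wilson intervals (scipy 1.17.1) and limits cover counting error only, as reads carry no molecular identifiers.

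The genes and lists were chosen with earlier results of these data known. Genes outside the 9 were named where they had the highest or lowest log2 fold change of their list at a mean of at least 1 CPM, passed an adjusted p under 0.05, or share exon bases with 1 of the 9. For some genes covered by this rule, the result is not reported here. *TUBB*, *SLC6A3*, *CARTPT*, *ALB*, *KRT5* and *INS* were named for their counts of 0 after these were seen. So was *MAOB*, which had counts only in OE replicate 1. Positions and lengths came from GENCODE v44 lifted to GRCh37, which held 93.1% of the transcripts and 93.5% of the counts. Other settings tried were DESeq2 1.42.0 and limma-voom (limma 3.58.1) as tests, RLE and upper-quartile scaling, other filters (1 count in total, or a mean of 10 counts), the transcript with the highest mean count (top transcript), no mitochondrial genes, a replicate block and each library left out. Robust dispersions and DESeq2 at 10 counts in total were chosen after seeing the data. The scripts were tested on simulated counts, and figures were drawn with matplotlib 3.10.9.

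Replicates of a condition differed by more than sampling noise (chi-square per gene 61.6 and 70.6). Of 20 housekeeping genes, 5 differed more than 4-fold between libraries, and of 14860 genes with at least 100 counts in a library, 93 were at 0 in another.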

Additional observations from a re-analysis of the deposited data

How the results depend on the processing

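None of the 7 fitted log2 fold changes of the catecholamine genes changed sign under the 15 alternatives, and 96 of 105 kept their side of an adjusted p of 0.05, the other 9 passing it. DESeq2 called 4 of them at an adjusted p under 0.05, both on the same genes and on genes with at least 10 counts in total, and robust dispersions in edgeR called 1. Their number at an unadjusted p under 0.05 was 5 in the edgeR fit and 3 with the replicate block (*DDC*, *DBH* and *GCH1*). With the block *MAOA* and *SLC18A2* dropped out, at log2 fold changes of 0.56 and -0.54. A fit with 1 library left out holds 1 library in a group, so only its log2 fold changes are given. They were from 0.83 to 0.99 for *DDC*, 0.79 to 0.84 for *DBH* and 0.49 to 0.64 for *GCH1*. For *MAOA* they were from 0.40 to 0.72, for *SLC18A2* from -0.67 to -0.42, for *SLC18A1* from 0.46 to 1.92 and for *SLC6A2* from 0.11 to 0.30. The numbers that replicates carry do not pair the libraries (correlation of deviations -0.0216), and with the replicate block 0 of all genes, in place of 122, had an adjusted p under 0.05, and 3060 had an unadjusted p under 0.05.

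Over all genes, the study's thresholds gave 0 genes in edgeR, 0 to 0 with each library left out, 9 with a minimum of 1 count in total, 1 with the top transcript, 51 with robust dispersions, 1800 with DESeq2 and 1722 with DESeq2 at 10 counts in total. At an adjusted p under 0.05 there were 122 genes, 32 to 75 with each library left out (52 without vector control replicate 1, 32 without vector control replicate 2, 62 without OE replicate 1), 9 with the top transcript, 299 with limma-voom, 647 with robust dispersions, 4064 with DESeq2 and 3852 with DESeq2 at 10 counts in total. The cause of these differences was not tested. For 15 other genes named in the text, 197 of 224 values kept their side of an adjusted p of 0.05 and 0 changed sign. Of 18 levels per length, 13 moved by more than the SD between replicates with the union of exons as length. The low counts of *SLC18A1* and *PNMT* limit what depth can show for them, and the 0 of *TH* can be a failed assignment of reads.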
